A study of Mus musculus with 4 samples.

Results

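A set of 10 G protein-coupled receptor genes, through which hormones, neurotransmitters and other signals reach islet cells, was examined in pancreatic islets of GPR41 transgenic mice. They were chosen by name, with earlier results of these data known. Of the 10, 9 had a probeset (the group of array probes that reads a transcript) that the platform annotation paired with that gene alone. Each of the 9 had exactly 1 such probeset, so none rested on a choice between probesets. They were read from a comparison of 22180 genes. The genes were Taar1, Gcgr, Gipr and Glp1r, whose receptors couple mainly to Gs, Casr and Chrm3, mainly to Gq, and Galr1, Sstr2 and Sstr3, mainly to Gi. Adra2a, the gene of a Gi-coupled adrenergic receptor, was not analysed here.

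The mice were C57BL/6, between 5 and 6 months old, and the isolated islets were held in RPMI medium before total RNA was taken. Tg islets carried a GPR41 transgene and were hybridised to 2 arrays. WT islets came from littermates without it, also on 2 arrays. The labels give neither the promoter of the transgene nor how many mice stood behind an array, and each array is titled as a biological replicate. Values are log2 intensities, and a difference is Tg minus WT on that scale, with its standard error (SE) and 95% confidence interval from limma and a p-value adjusted over all genes. With 2 arrays in each group, these p-values rest in large part on the spread borrowed from all genes.

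Hormone receptors on islet cells act through 3 main kinds of G protein. Gs activates adenylyl cyclase and raises cyclic AMP, which amplifies glucose-stimulated insulin release. Gq activates phospholipase C and releases calcium from stores, and Gi lowers cyclic AMP and opens potassium channels, which restrains secretion. GPR41, encoded in the mouse by Ffar3, is itself a Gi-coupled receptor for short-chain fatty acids. Its probeset read 11.02 and 10.98 on the Tg arrays, against 7.09 and 6.47 on the WT arrays, in the direction of the labels (difference 4.22, SE 0.21, adjusted p = 0.0020).

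Of the 9 receptor genes, 1 passed the test. Taar1 fell 2.98-fold in Tg islets, and the other 8 receptor genes had adjusted p-values between 0.109 and 0.929. By the same threshold, 0.897% of all 22180 genes passed, 0.225% as lower and 0.672% as higher in Tg. Gcgr and Casr had the next largest differences, both lower in Tg, with intervals that excluded 0 but adjusted p-values above the threshold. The genes of the main incretin receptor, Glp1r, and of the muscarinic receptor, Chrm3, had small positive differences that did not pass. In direction, 6 of the 9 were lower in Tg and 3 were higher, with a median difference of -0.14. Of all genes, 54.3% were lower and the median difference was -0.02. As the 9 were chosen with earlier results known, nothing is read from these counts beside the shares of all genes.

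**Figure D1:**
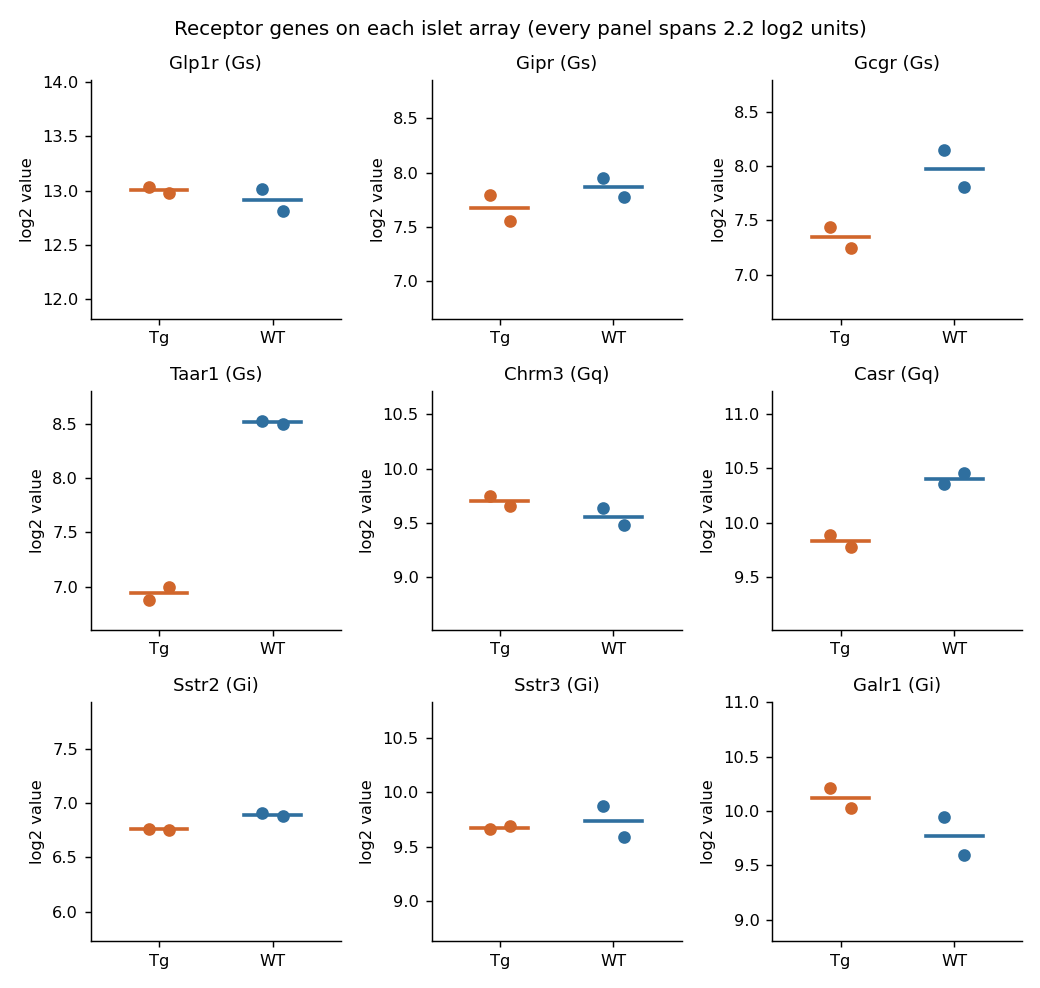
Log2 value of each of the 9 receptor genes (vertical axis) on the 2 Tg and the 2 WT arrays, as points, with a bar at each group's mean. Panels cover the same span of log2 units, so distances can be compared between panels, but not levels. The Tg points of Taar1, at 6.88 and 7.0, lie far below its WT points, at 8.53 and 8.50, and those of Gcgr and Casr lie below by less.

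Taar1 encodes a receptor for trace amines such as tyramine and phenylethylamine, and it raises cyclic AMP through Gs. It read 6.88 and 7.0 on the Tg arrays, against 8.53 and 8.50 on the WT arrays. The groups did not overlap, and the gap between them was many times the distance between arrays of the same group. The group means were 6.94 ± 0.08 in Tg and 8.51 ± 0.02 in WT (SD, n = 2 each). The difference was -1.57 (SE 0.11, interval -1.84 to -1.31, adjusted p = 0.0068). Its interval lay apart from those of the other 8 receptor genes, the nearest of which reached down to -1.01. Without Tg replicate 1, the difference was -1.52 and the adjusted p was 0.070. Each of the other arrays left out in turn kept the adjusted p between 0.029 and 0.048.

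Relatives of Taar1 were measured too. The other 14 measured trace amine-associated receptor genes, most of them known as odour receptors of the olfactory epithelium, were added after their values had been seen. None of the 14 passed the test in limma over all genes, and 1 had an unadjusted p under 0.05. That gene was Taar4, at 4.75 and 4.56 on the Tg arrays, against 5.08 and 4.91 on the WT arrays (difference -0.34, SE 0.13, adjusted p = 0.385). Their median difference was 0.07, with a range of -0.34 to 0.25. Of the 14, 11 lay below the first quartile of all genes on all 4 arrays. Taar1 itself lay above the median of all genes on each array. Whether the change of Taar1 differed from that of its relatives was not tested.

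The genes whose pattern over the 4 arrays was most like that of Taar1 were found by the Euclidean distance between values centred on each gene's mean. Genes with a symbol of Gm and digits, or ending in Rik, were left out, so the ranking covers genes with a named symbol. The nearest was Pappa2, which encodes a protease that cleaves an IGF-binding protein, at a distance of 0.178 (difference -1.44, SE 0.13). Necab2, the gene of a neuronal calcium-binding protein, followed at 0.179 (difference -1.47). Spock1, a matrix proteoglycan gene (0.228), Ust, a sulfotransferase gene (0.275), and the potassium channel gene Kcnh5 (0.305) came next. With 4 arrays in 2 groups, such a ranking mainly finds genes with a difference of similar size. These 5 genes were all below the adjusted threshold, with adjusted p-values of 0.014 to 0.035 by limma. Choosing genes by likeness to one that passed makes this likely, so nothing is read from it.

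**Figure D2:**
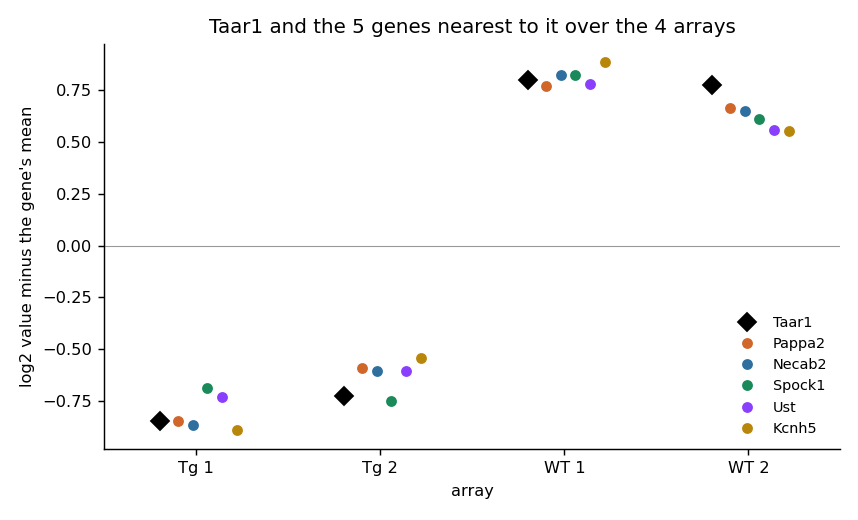
Log2 value minus the gene's own mean (vertical axis) on each of the 4 arrays. Taar1 is shown as black diamonds. The 5 genes nearest to it, among those with a named symbol, are coloured points. All 6 genes are below their mean on both Tg arrays and above it on both WT arrays, and the WT arrays of Taar1, at 8.53 and 8.50, are closer to each other than those of the other 5.

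Gcgr encodes the glucagon receptor, through which glucagon from alpha cells raises cyclic AMP in beta cells. It read 7.44 and 7.24 on the Tg arrays, against 8.15 and 7.81 on the WT arrays. Both Tg values were lower than both WT values, and the WT arrays lay further apart than the Tg arrays. The difference was -0.63 (SE 0.15, interval -1.01 to -0.26), or 1.55-fold lower in Tg. Its unadjusted p was 0.0066 and its adjusted p 0.186, so it did not pass. Leaving out single arrays moved the difference to between -0.80 and -0.46.

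The incretin receptor genes stood closer to 0. Gipr, whose product binds the gut hormone GIP, read 7.79 and 7.56 on the Tg arrays, against 7.95 and 7.78 on the WT arrays. Those groups overlapped, and the difference was -0.19 (SE 0.13, interval -0.52 to 0.13, adjusted p = 0.656), moving to between -0.31 and -0.075 without single arrays. Glp1r, whose product binds glucagon-like peptide 1, read 13.03 and 12.98 on the Tg arrays, against 13.01 and 12.81 on the WT arrays. Its groups overlapped as well, with a difference of 0.10 (SE 0.12, interval -0.19 to 0.39, adjusted p = 0.833). Only 28 genes had a higher mean log2 value than Glp1r, and the insulin gene Ins2 was not among them. Values of different probesets are therefore not read as a rank of transcript amounts. Glp1r read near the top of the scale, and whether such high signals still follow the amount of transcript was not tested. Without WT replicate 2, its difference was -0.0049.

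Casr encodes the calcium-sensing receptor, which detects extracellular calcium and couples to Gq and also to Gi. It read 9.89 and 9.77 on the Tg arrays, against 10.35 and 10.46 on the WT arrays. The groups did not overlap, and arrays of a group lay close together. The difference was -0.58 (SE 0.11, interval -0.85 to -0.30), or 1.49-fold lower in Tg. The adjusted p was 0.109. With a variance trend in the model it was 0.0497, so this call depended on how the spread was modelled. Chrm3, the gene of the M3 muscarinic receptor through which acetylcholine from nerves enhances insulin release, read 9.75 and 9.66 on the Tg arrays, against 9.64 and 9.48 on the WT arrays. The values were higher on both Tg arrays by a small margin (difference 0.14, SE 0.11, interval -0.14 to 0.43, adjusted p = 0.708). Without single arrays, the Chrm3 difference was between 0.068 and 0.22.

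Of the Gi-coupled receptor genes, Galr1 had the largest difference. It encodes a receptor for galanin, a neuropeptide that inhibits insulin release. It read 10.21 and 10.03 on the Tg arrays, against 9.94 and 9.59 on the WT arrays. Both Tg values were higher than both WT values, but the WT arrays were about as far apart as the group means. The difference was 0.35 (SE 0.15, interval -0.03 to 0.73, adjusted p = 0.452), and leaving out single arrays moved it to between 0.18 and 0.53.

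Sstr2 and Sstr3 encode receptors for somatostatin, the hormone with which delta cells restrain their neighbours. Sstr2 read 6.76 and 6.75 on the Tg arrays, against 6.91 and 6.88 on the WT arrays. The groups did not overlap, but the difference was small (-0.14, SE 0.10, interval -0.38 to 0.11, adjusted p = 0.685). Sstr3 read 9.67 and 9.69 on the Tg arrays, against 9.87 and 9.59 on the WT arrays. The Tg values fell between the WT values (difference -0.06, SE 0.13, interval -0.38 to 0.27, adjusted p = 0.929). The genes of the other somatostatin receptors, Sstr1 (difference 0.03), Sstr4 (0.03) and Sstr5 (0.08), named here as relatives, did not pass either.

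**Figure D3:**
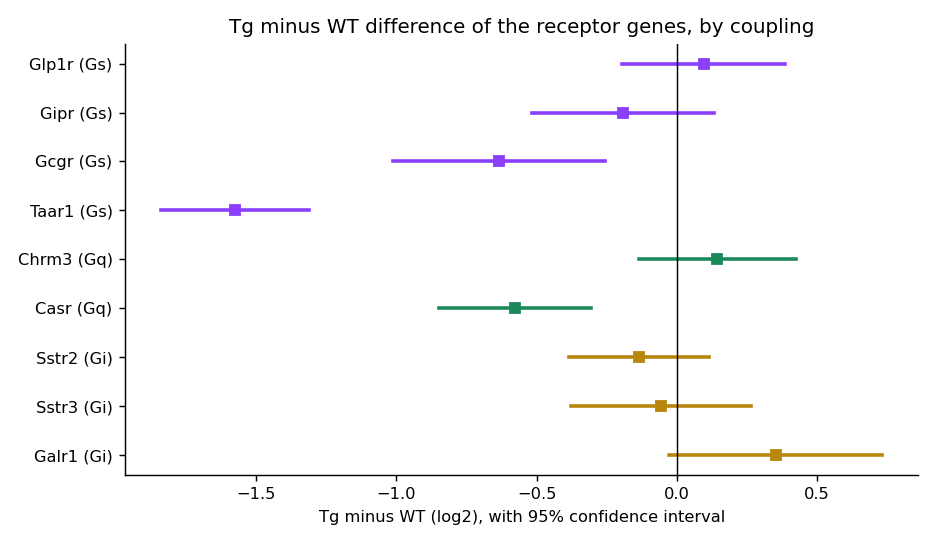
Tg minus WT difference on the log2 scale (horizontal axis) for each receptor gene, grouped by main G protein coupling, with squares at the estimate and lines for the 95% confidence interval. The interval of Taar1, -1.84 to -1.31, lies left of all others, those of Gcgr and Casr also exclude 0, and the remaining 6 include it.

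Set side by side by coupling, the genes of Gs-coupled receptors had a median difference of -0.41 (3 of 4 lower in Tg), those of Gq-coupled receptors -0.22 (1 of 2 lower) and those of Gi-coupled receptors -0.06 (2 of 3 lower). Mean log2 values of the Gs group were 8.79 and 8.70 on the Tg arrays, against 9.41 and 9.22 on the WT arrays. For the Gq group they were 9.82 and 9.71 on the Tg arrays, against 9.99 and 9.97 on the WT arrays. For the Gi group they were 8.88 and 8.82 on the Tg arrays, against 8.91 and 8.69 on the WT arrays, and those groups overlapped. The lower mean of the Gs group came from Taar1 and Gcgr, while Gipr and Glp1r had overlapping values. With 2 to 4 genes in a class, whether the classes differed was not tested.

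Without correction for the number of genes, 3 of the 9 had a p under 0.05, all lower in Tg (Taar1, Casr and Gcgr), where 5.72% of all genes were lower and 6.13% higher by this rule. With a difference of at least 1.5-fold as well, 2 of the 9 were lower in Tg, Taar1 and Gcgr, and 0 were higher, where 3.48% of all genes qualified, 1.13% as lower and 2.35% as higher. The count of 2 became 1 without Tg replicate 2 and 3 without Tg replicate 1. Groups did not overlap for 6 of the 9 receptor genes, 4 of them lower and 2 higher in Tg. Of all genes, 42.3% did not overlap, 23.7% as lower and 18.6% as higher. Because the receptors were chosen with earlier results known, nothing is read from these counts. The spread between arrays of a group ranged from an SD of 0.0075 to 0.164 in Tg and from 0.018 to 0.247 in WT. Intervals reached 0.25 to 0.38 to either side of the difference, without correction for the number of genes. Changes well below that size were not detectable with this number of arrays. Larger ones could also miss the adjusted threshold, as Gcgr (difference -0.63) and Casr (-0.58) did.

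Other receptors of the same coupling classes, taken from lists of 106 genes of which 93 were measured, centred on 0. The median difference was -0.0023 for 26 Gs-coupled, 0.0086 for 32 Gq-coupled and 0.0079 for 35 Gi-coupled receptor genes. Of the 93, 73 had a mean below the median of all genes. Of the 93, 1 passed the test, where 0.897% of all genes did, so this count was near that share. Vipr1, which encodes a Gs-coupled receptor for the peptides VIP and PACAP, fell in Tg islets. It read 7.72 and 7.77 on the Tg arrays, against 8.63 and 8.49 on the WT arrays (difference -0.82, SE 0.11, adjusted p = 0.043). With any 1 array left out, its adjusted p lay above the threshold (lowest 0.097, without WT replicate 2), while the difference stayed between -0.89 and -0.75.

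Vipr2, the gene of the second receptor for the same peptides, read 7.22 and 7.30 on the Tg arrays, against 8.82 and 8.15 on the WT arrays. The groups did not overlap, but the WT arrays stood apart from each other, and it did not pass (difference -1.23, SE 0.22, adjusted p = 0.095). Without WT replicate 2, the difference was -1.56 and the adjusted p 0.030, and without WT replicate 1 they were -0.89 and 0.084. It also passed with a variance trend and a robust prior (adjusted p = 0.044). The gene of the PACAP receptor of this family, Adcyap1r1, named as a relative of both, was at 0.22 (SE 0.13, adjusted p = 0.591).

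**Figure D4:**
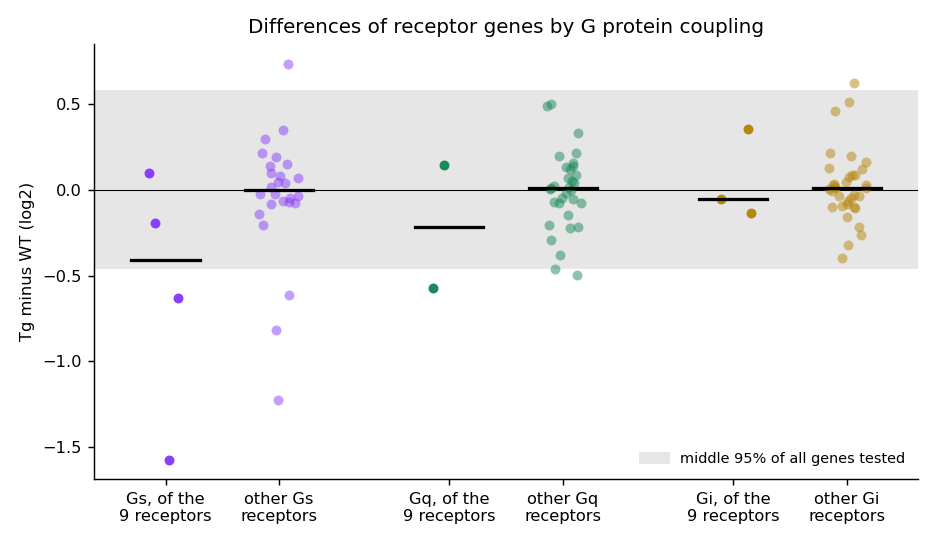
Tg minus WT differences on the log2 scale (vertical axis) of the 9 receptor genes and of the other receptor genes, by G protein coupling, with a bar at each median and a grey band for the middle 95% of all genes, -0.45 to 0.58. Taar1 is the lowest point, and Vipr2 and Vipr1 are the lowest of the other Gs-coupled receptors, whose median is near 0.

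Receptors for glucagon, GLP-1 and GIP belong with those for VIP and PACAP to the secretin family, which binds peptide hormones through a large extracellular domain. The family was put together after its values had been seen. Of its 15 measured genes, 11 were lower and 4 higher in Tg, with a median difference of -0.06, where 54.3% of all genes were lower. By the adjusted threshold 1 was lower, Vipr1, where 0.225% of all genes were. By the 1.5-fold rule 3 were lower, Vipr2, Vipr1 and Gcgr, where 1.13% of all genes were, and the choice of the family with these values known means that nothing is read from the counts. By that rule 1 was higher, Calcrl, which encodes a receptor subunit for adrenomedullin and CGRP (difference 0.74, SE 0.25, adjusted p = 0.343). Calcrl read 8.19 and 7.44 on the Tg arrays, against 7.18 and 6.98 on the WT arrays. Tg replicate 1 stood apart, and the difference was between 0.36 and 1.11 when single arrays were left out.

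**Figure D5:**
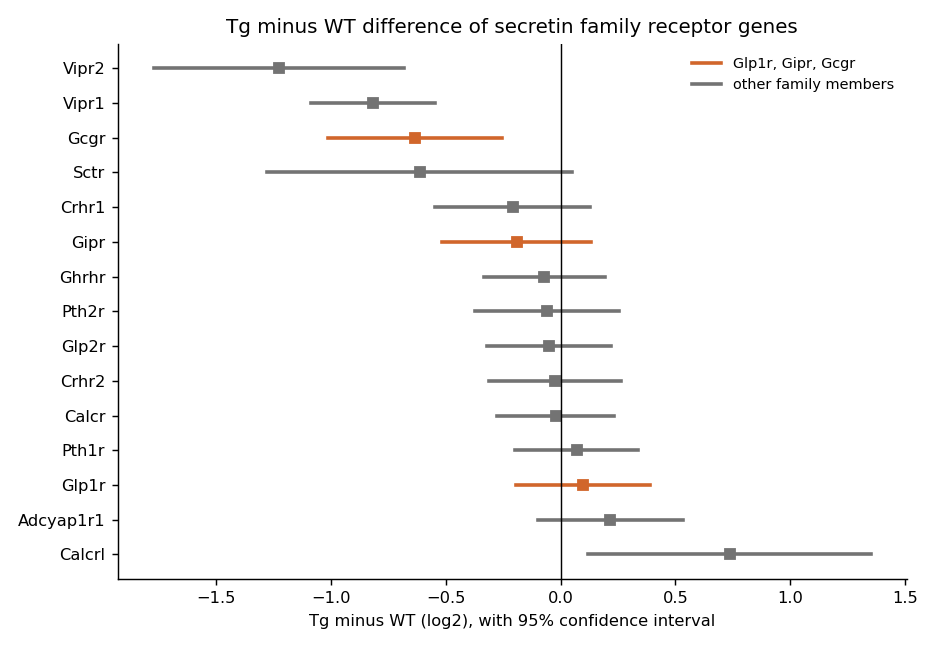
Tg minus WT difference on the log2 scale (horizontal axis) for the 15 measured secretin family receptor genes, sorted, with 95% confidence intervals; Glp1r, Gipr and Gcgr are in orange and the other 12 in grey. Vipr2, Vipr1 and Gcgr have intervals below 0, Calcrl has one above 0, and the remaining 11 include 0.

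Among the Gi-coupled genes outside the 9, P2ry12, an ADP receptor of platelets and microglia, read 7.34 and 7.30 on the Tg arrays, against 6.74 and 6.64 on the WT arrays (difference 0.63, SE 0.11, adjusted p = 0.079, or 0.046 among genes above the median level). Gabbr2, a subunit of the GABA-B receptor that restrains insulin release, read 11.23 and 11.33 on the Tg arrays, against 10.73 and 10.80 on the WT arrays (difference 0.51, SE 0.11, adjusted p = 0.134, or 0.048 with a variance trend and 0.033 with a robust prior as well). The cannabinoid receptor gene Cnr1 was at 0.46 and Npy4r, a receptor gene for pancreatic polypeptide, at -0.40, and neither passed. Npy4r was dim, with means of 4.69 in Tg and 5.09 in WT, where the first quartile of all genes was 4.92 to 4.97. In the Gq-coupled list, the differences were 0.50 for the bradykinin receptor gene Bdkrb2, 0.49 for the endothelin receptor gene Ednrb, -0.38 for the ADP receptor gene P2ry1 and -0.50 for the ghrelin receptor gene Ghsr, again without passing. In the Gs-coupled list, the prostacyclin receptor gene Ptgir was at 0.35 (adjusted p = 0.397).

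Ligand genes of the chosen receptors, with those for Adra2a included, did not pass in any of 12 cases by limma. None of them had an unadjusted p under 0.05. Gcg, the source of glucagon and of GLP-1, read 13.45 and 13.50 on the Tg arrays, against 13.64 and 13.61 on the WT arrays (difference -0.15, SE 0.10). Sst, which encodes somatostatin, read 13.14 and 12.87 on the Tg arrays, against 13.43 and 13.21 on the WT arrays (difference -0.32, SE 0.14). Th, the rate-limiting enzyme of catecholamine synthesis, was at -0.39, and Chat, which makes acetylcholine, at -0.30. Cort, the gene of the somatostatin-like peptide cortistatin, was at -0.20. Chat (means 5.07 in Tg and 5.37 in WT) and Cort (5.26 and 5.46) read below the array medians of 6.43 to 6.47.

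Genes of the machinery that these receptors engage did not pass the adjusted test either. None of 13 G protein alpha subunit genes did, while 2 had an unadjusted p under 0.05, both higher in Tg. These were Gna14, of the Gq family, at 7.11 and 7.22 on the Tg arrays, against 6.33 and 6.75 on the WT arrays (difference 0.63, SE 0.16), and Gnai1, of the Gi family, at 9.53 and 9.46 on the Tg arrays, against 8.97 and 9.17 on the WT arrays (difference 0.42, SE 0.12). Gnas, which encodes the Gs alpha subunit, was at -0.21 and Gna13 at 0.15.

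Of 6 receptor kinase and arrestin genes, which switch activated receptors off, 0 passed and 2 had an unadjusted p under 0.05, both lower in Tg. Grk5 read 8.19 and 8.18 on the Tg arrays, against 8.71 and 8.69 on the WT arrays (difference -0.51, SE 0.10, adjusted p = 0.115). Arrb2, an arrestin gene, had a difference of -0.34, while the kinase genes Grk3 and Grk4 were at 0.13 and -0.17. Grk4 was dim, with means of 5.05 in Tg and 5.22 in WT. Of 12 adenylyl cyclase and phospholipase C genes, 0 passed and 3 had an unadjusted p under 0.05. Adcy4 (difference 0.55, adjusted p = 0.10) and Adcy7 (0.32) were higher in Tg, and Adcy6 (-0.40) was lower. Plcb1, which Gq activates, was at -0.25.

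Islets hold several cell types, and in whole-islet RNA fewer cells of a type cannot be told apart from less of a transcript in each cell. Beta cell markers did not pass in any of 9 cases. Of the 9, 6 were lower in Tg, with a list median of -0.11, and 2 had an unadjusted p under 0.05, both lower, the hormone gene Ucn3 (difference -0.60) and the zinc transporter gene Slc30a8 (-0.33), named after their values were seen. The groups did not overlap for 3 of the 9, all lower in Tg. Of all genes, 42.3% did not overlap, 23.7% as lower and 18.6% as higher. The mean log2 value of the 9 was 11.04 and 11.13 on the Tg arrays, against 11.33 and 11.09 on the WT arrays. The insulin gene Ins2 read 12.52 and 12.59 on the Tg arrays, against 12.57 and 12.46 on the WT arrays. All 5 measured alpha cell markers were lower in Tg without passing (median -0.45, 3 at an unadjusted p under 0.05), with a list mean of 8.97 and 9.31 on the Tg arrays, against 9.77 and 9.47 on the WT arrays. Delta cell markers, Ghsr among them, had a median of -0.32 (4 of 5 lower, 0 past the adjusted threshold, 1 at an unadjusted p under 0.05) and means of 8.71 and 8.56 on the Tg arrays, against 8.96 and 8.78 on the WT arrays. The 3 markers of PP and epsilon cells had a median of -0.21, with the hormone gene Ppy at 0.06. The part of these cell types in the lower values of Taar1, Gcgr, Casr, Vipr1 and Vipr2 was not tested.

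Immune, endothelial and mesenchymal markers had higher values in Tg, as P2ry12, Calcrl and Ednrb had. Other receptor genes were higher in Tg too, Gabbr2, Bdkrb2, Cnr1, Ptgir and Galr1 among them. All 12 immune markers were higher in Tg, 10 of them at an unadjusted p under 0.05 and by at least 1.5-fold, with a median difference of 0.92. The leukocyte gene Coro1a was the 1 that passed the adjusted threshold (difference 0.94, SE 0.10), and the list mean was 8.04 and 7.61 on the Tg arrays, against 7.01 and 6.86 on the WT arrays. All 10 endothelial markers were higher without passing (6 at an unadjusted p under 0.05), with means of 8.64 and 8.34 on the Tg arrays, against 8.15 and 7.95 on the WT arrays, and so were all 9 mesenchymal markers (2 at an unadjusted p under 0.05), at 7.18 and 7.07 on the Tg arrays, against 6.68 and 6.82 on the WT arrays. The part of these cells in the values of P2ry12, Calcrl, Ednrb or the other higher receptor genes was not tested. Acinar markers overlapped between the groups (12.96 and 12.59 on the Tg arrays, against 12.25 and 13.28 on the WT arrays). List means of duct markers overlapped likewise (8.08 and 7.85 on the Tg arrays, against 7.07 and 8.43 on the WT arrays). Of the 5, 4 were lower in Tg, with a list median of -0.03. The other, the chloride channel gene Cftr, rose and passed the adjusted threshold (difference 2.30, SE 0.23, adjusted p = 0.021). It read 7.80 and 7.75 on the Tg arrays, against 5.13 and 5.83 on the WT arrays. Among 5 Schwann and neural markers, the median was -0.07, 0 passed and 1 had an unadjusted p under 0.05.

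The WT arrays differed from each other in the receptors as well. WT replicate 1 read higher than WT replicate 2 for 8 of the 9 receptor genes, against 55.5% of all genes, and the list means of acinar and duct markers were lower on it (in all 7 acinar and 4 of 5 duct markers). Tg replicate 1 read higher than Tg replicate 2 for 7 of the 9, against 48.5% of all genes. Unlike in WT, the list means of acinar markers (12.96 against 12.59) and duct markers (8.08 against 7.85) were higher on Tg replicate 1. The part of exocrine cells in these differences between arrays of a group was not tested. Over the arrays as a whole, median log2 values were 6.43 to 6.47, and Pearson's r across probesets, which are not replicates, was 0.994 between the Tg arrays and 0.991 between the WT arrays.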

How the data were processed

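Islet RNA (250 ng per array, per the labels' protocols) was hybridised to Affymetrix Mouse Gene 2.0 ST arrays. The deposited values are log2 intensities, as read from their range of 2.87 to 13.9. Partek and RMA (background correction, quantile normalisation, probe summary) are named, without versions, per the submitters' processing notes. The build of the genome is not given in the sources used. All 4 columns were used.

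Of 27037 probesets, 23521 had 1 gene symbol in the platform annotation, 1814 several and 1702 none. The brightest single-symbol probeset stood for each of 22180 genes, with no filter on dim genes. Differences came from limma 3.58.1 (lmFit, then eBayes) under R 4.3.3 on 2 residual degrees of freedom plus 3.76 from moderation, and p-values were adjusted over all genes by Benjamini-Hochberg. The smallest two-sided p of an exact permutation test in this design is 0.333. The fit was tested on simulated data. Of 243 list entries, 28 had no single-symbol probeset and were not used here.

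The receptors and gene lists were chosen with earlier results of these data known. Genes named are the 9 receptors, Ffar3 and the 4 with the smallest p in each list that holds no cell markers. Markers past the adjusted threshold, Ins2, Gcg, Sst, Ppy and the 5 genes nearest to Taar1 among those with a named symbol are also named. Others are named as relatives, after their values were seen. Alternatives changed the probeset rule, filter, normalisation, variance model, block, fold limit and arrays. Lists got counts and medians, with no test.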

Additional observations from a re-analysis of the deposited data

How the results depend on the processing

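All alternatives were planned. The Taar1 difference of -1.57 kept its direction throughout; its adjusted p was above the threshold without variance moderation (difference -1.57, adjusted p = 0.452), with the replicate block (-1.57, 0.082) and without Tg replicate 1, and leaving out single arrays gave -1.63 to -1.52. Ffar3 lost its call without moderation (4.22, adjusted p = 0.472). Casr passed with a variance trend (-0.58, adjusted p = 0.0497) and with a trend and robust prior (-0.58, 0.034). Against 1 receptor past the adjusted threshold, the count was 2 with either trend, 0 without moderation, 0 with the replicate block, and 0 to 1 with each array left out. The 2 receptors of the 1.5-fold rule became 1 without moderation, 1 at a 2-fold limit, 3 with centred arrays, where Casr joined them, and 1 to 3 with each array left out. Over all genes, the 199 past the adjusted threshold became 347 with a trend and robust prior, 0 without moderation, 24 with the replicate block and 38 to 135 with each array left out, and the 772 of the 1.5-fold rule became 846 to 1078 with each array left out, 416 without moderation and 262 at a limit of 2-fold. The labels' replicate numbers were not taken as pairs: over all genes, deviations of same-numbered arrays from their group means had a correlation of -0.063. With single arrays left out, Sstr3 ranged from -0.20 to 0.084, turning sign without WT replicate 1 (0.084), and Glp1r from -0.0049 to 0.20, turning sign without WT replicate 2. Ins2 (-0.016 to 0.096) and Ppy (-0.0071 to 0.13) also turned sign. Class medians with each array left out were -0.54 to -0.28 for Gs, -0.27 to -0.16 for Gq and -0.15 to 0.084 for Gi-coupled receptors of the 9, and -0.018 to 0.031, -0.037 to 0.057 and -0.060 to 0.036 for the other Gs, Gq and Gi-coupled receptors. The other Gs-coupled median was 0.24 among the 6 genes above the median level, and the other Gq-coupled median was -0.048 under that filter and -0.012 with centred arrays. Centring moves the differences of all genes by the same amount. The filter leaves fewer genes, and other causes of the changes under it were not tested. Of the 8 other named genes past the threshold, 41 of 111 alternatives lost the call, and of the 30 not past it, 5 of 414 gained one. The number of arrays limits the precision.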
